A study of Homo sapiens with 4 samples.

Results

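Some genes are read by more than 1 probe set of an expression array, and in 10 genes (NUDT5, ADH5, AGPAT5, APPBP2, BCCIP, DCAF7, DLD, GSPT1, HNRNPD and TMF1) 1 probe set was higher and at least 1 other was lower after TET1 knockdown. The members are 10 of 19775 genes that the platform annotation ties to probe sets with a single gene symbol, and every probe set with such a symbol was taken, 43 in all. Of these 43, 36 lay above a filter on dim signals (a mean log2 value above the median of all probe sets, equal to a signal of 13.1) and 7 lay below it. The RNA came from the established human cell line HCT116, derived from a colorectal cancer, after lipid transfection with an siRNA against TET1 (2 arrays) or with a control siRNA (2 arrays). The series calls the samples biological duplicates, while neither the time after transfection nor the siRNA sequences were known here. Both groups are 1 cell line, and no other siRNA against TET1 was analysed here, so loss of TET1 and any further effect of its siRNA cannot be told apart.

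A human gene can give several messenger RNAs. Alternative splicing changes which exons are joined, and alternative cleavage and polyadenylation ends the transcript at different places, which changes the length of the 3′ end and the sites in it that RNA-binding proteins and microRNAs can reach. On this array a probe set is a group of short probes against 1 stretch of a transcript. The cDNA was primed with oligo(dT), so a probe set reports the transcripts that carry its stretch close enough to their poly(A) tail. Probe sets of the same gene that read different stretches can therefore report different mixtures of its transcripts. A name ending in _s_at marks a probe set that matches several transcripts, and one ending in _x_at marks probes that can also bind transcripts of other genes. The brightness of a probe set depends on its own probes, so the results below rest on changes and not on levels of different probe sets.

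The 4 arrays had median signals of 13.9 and 14.4 with TET1 siRNA and of 14.3 and 15.5 with control siRNA, in arbitrary units scaled by the authors to the same trimmed mean. TET1 itself was lower: its brighter probe set read 14.6 and 15 with TET1 siRNA and 58.1 and 59.6 with control siRNA (log2 difference -1.28, SE 0.20, limma adjusted p = 9.28e-04). Of 11 markers of colorectal epithelium 8 lay above the filter, of which CEACAM5, KRT20 and VIL1 lay near it. Their mean signals were 21.05, 22.25 and 16.2 with TET1 siRNA and 14.65, 18.2 and 14.45 with control siRNA. EPCAM, KRT18 and KRT19 were brighter, and neither they nor the dim ones were called. KRT8 rose (0.32) and CDH1, the gene of E-cadherin, fell (-1.16, with signals of 474.8 and 394 against 925.1 and 1059). The summed signal of 4 lymphocyte and myeloid markers was 36.2 and 35 with TET1 siRNA and 21.7 and 47.4 with control siRNA, and that of 5 endothelial markers 36.6 and 24.3 against 30.1 and 47.9. Of 7 fibroblast markers 3 lay above the filter and the summed signal was 395.4 and 500.9 against 355 and 315.4, and COL1A1 alone among them passed the test (0.47). The ratio of 3′ to 5′ control probe sets, a sign of RNA integrity and of how far the labelling reached, was 0.884 and 0.858 with TET1 siRNA and 0.858 and 0.846 with control siRNA for GAPDH. It was 1.28 and 1.26 against 1.21 and 1.19 for beta-actin. The part of these ratios in the results was not tested.

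A probe set is called higher or lower where limma, fitted to all 27306 probe sets above the filter, gave an adjusted p below 0.05. By that rule 2119 probe sets were higher (7.76%) and 2268 lower (8.31%). Among 6222 genes with 2 or more probe sets above the filter, 30 had probe sets called in both directions (0.482%), and the 10 members are among these 30. For comparison, 786 genes had 2 or more probe sets called, and in 756 of them all calls ran the same way. The calls chose the members, so the values of the members below are a description and carry no test. In the members 10 probe sets were called higher, 13 lower and 13 neither way. All differences are TET1 siRNA minus control siRNA of log2(signal + 16), so the change of a dim probe set is understated.

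Among the members with enzyme functions in metabolism, NUDT5 and DLD had the largest falls of all members. NUDT5 is a Nudix hydrolase that cleaves ADP-ribose. Its probe set 222824_at read 157.5 and 169.1 with TET1 siRNA and 429.3 and 437 with control siRNA, a log2 difference of -1.33 (SE 0.10), which left 0.377 of the control signal. Its probe set 223100_s_at read 1505.9 and 1415.7 with TET1 siRNA and 1144.7 and 1038.3 with control siRNA (0.42, SE 0.077). The groups did not overlap in either probe set, and the span of 1.74 between the 2 differences was the widest among the members and had rank 3 among the 30 genes.

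DLD encodes dihydrolipoamide dehydrogenase, the E3 subunit shared by the pyruvate, 2-oxoglutarate and branched-chain ketoacid dehydrogenase complexes. Its probe set 230426_at read 39.5 and 15.9 with TET1 siRNA and 63.4 and 101.2 with control siRNA (-1.20, SE 0.27), and 209095_at read 2182.7 and 2354.7 against 1864.5 and 1851.9 (0.28, SE 0.068). The arrays within each group lay far apart in the dim probe set, whose log2 difference was -1.60 without replicate 1 of the TET1 siRNA arrays and -0.80 without their replicate 2. ADH5 is the class III alcohol dehydrogenase, which removes formaldehyde and S-nitrosoglutathione. Its probe set 208848_at read 453.7 and 459.6 with TET1 siRNA and 747.2 and 761 with control siRNA (-0.70, SE 0.080). Its other probe set, 208847_s_at, read 2492.2 and 2293 against 2114.3 and 1930.8 (0.24, SE 0.074). The rise of ADH5 lay nearest to the threshold of all the calls that chose the members, with a limma adjusted p of 0.0485, and NADK, with differences of 0.32 and -0.48, lay just outside it, with 0.0511 for its weaker side. AGPAT5 transfers an acyl group to lysophosphatidic acid in phospholipid synthesis. Its probe set 232007_at read 108.9 and 94.6 with TET1 siRNA and 172.7 and 181 with control siRNA (-0.71, SE 0.13), and 218096_at read 1742.2 and 1832.5 against 1397.3 and 1576.2 (0.27, SE 0.077). In these 3 genes, as in NUDT5, 1 probe set lay wholly above and 1 wholly below the control arrays, and no further probe set was measured.

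APPBP2 and DCAF7 encode substrate receptors or scaffolds that work with cullin ubiquitin ligases. APPBP2 was first described as a protein that binds the amyloid precursor protein, and it recognises C-terminal degrons for a CUL2 ligase. Its probe set 202629_at read 669.7 and 720.8 with TET1 siRNA and 495.5 and 507.5 with control siRNA (0.46, SE 0.083), while 202630_at read 291 and 253.6 against 404.1 and 399.2 (-0.54, SE 0.10). The remaining one above the filter, 202631_s_at, read 373.3 and 346.7 against 269.2 and 305.2 and was not called (0.31, SE 0.10). Of its tested probe sets APPBP2 thus had 2 above and 1 below the control arrays, all without overlap.

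DCAF7 is a WD40 repeat protein that binds the kinase DYRK1A and the DDB1 adaptor of CUL4 ligases. It was the member with the most probe sets called, 1 higher and 4 lower. Its probe set 209592_s_at read 480 and 445.2 with TET1 siRNA and 303.5 and 292.2 with control siRNA (0.61, SE 0.093), the largest rise among the members. Of those that fell, 224748_at read 647.7 and 660.6 against 904.4 and 848.7 (-0.41, SE 0.078) and 221745_at read 176.3 and 170.9 against 244.1 and 273 (-0.53, SE 0.11). The others, 221744_at and 224730_at, had log2 differences of -0.50 and -0.49. The 4 that fell had similar differences, so among the tested probe sets of this gene 1 stood apart from 4. Below the filter and not tested, 233782_at read 22.7 and 16 against 12.7 and 4 (0.55), on the side of the rise. The other one below it, 236134_at, read 0.8 and 14.2 against 13.1 and 16.7 (-0.45), with overlap.

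BCCIP binds the DNA repair protein BRCA2 and the cyclin-dependent kinase inhibitor CDKN1A. Its probe set 218264_at read 311.3 and 270.9 with TET1 siRNA and 507.3 and 494.6 with control siRNA (-0.75, SE 0.098), and 227322_s_at read 1708.4 and 1688.4 against 1376.2 and 1421.8 (0.28, SE 0.067). A dimmer one, 227896_at, read 43.7 and 71.4 against 42.2 and 56.3; its groups overlapped and it was not called. TMF1 is a golgin, a coiled-coil protein of the Golgi apparatus. Its probe set 214948_s_at read 351.3 and 341.9 with TET1 siRNA and 418.9 and 473.1 with control siRNA (-0.35, SE 0.096), and 213024_at read 223.1 and 260.3 against 170.3 and 178.8 (0.43, SE 0.12). The 3 other TMF1 probe sets above the filter had log2 differences of 0.22, 0.26 and 0.27 and were not called, so 4 of its 5 differences were positive and the one that was negative was also a call.

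HNRNPD and GSPT1 act on messenger RNA. HNRNPD, also called AUF1, binds AU-rich elements in the 3′ ends of short-lived transcripts, and its own transcript is known to be spliced into several isoforms. Its probe set 213359_at read 221.8 and 262.9 with TET1 siRNA and 172.7 and 180.7 with control siRNA (0.42, SE 0.12), and 209330_s_at read 968.4 and 1065.9 against 1434.3 and 1403.8 (-0.48, SE 0.076). The 4 HNRNPD probe sets that were not called had log2 differences from -0.24 to -0.07. Its brightest, 221481_x_at, read 1756.8 and 2261.3 against 2283.7 and 2356.1, all on the side of the fall. Among the tested HNRNPD probe sets a single one therefore lay on the positive side. Below the filter and not tested, 205183_at read 6.6 and 2 against 1.5 and 1.4 (0.21), while 227744_s_at (0.00) and 239040_at (-0.11) had groups that overlapped.

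GSPT1 encodes the translation termination factor eRF3a. Its probe set 215438_x_at read 1205.2 and 1170.5 with TET1 siRNA and 1041.4 and 846.4 with control siRNA (0.33, SE 0.096), and 234975_at read 62.8 and 72.9 against 101.8 and 102.1 (-0.49, SE 0.15). Of its 4 other probe sets, 225276_at (-0.41) and 240452_at (-0.38) were on the side of the fall and 201912_s_at (0.05) and 217595_at (0.11) were near 0, none of them called. The GSPT1 rise was 0.19 without control siRNA replicate 2 and 0.48 without control siRNA replicate 1. Its probe set is of the type that can also bind transcripts of other genes.

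**Figure D1:**
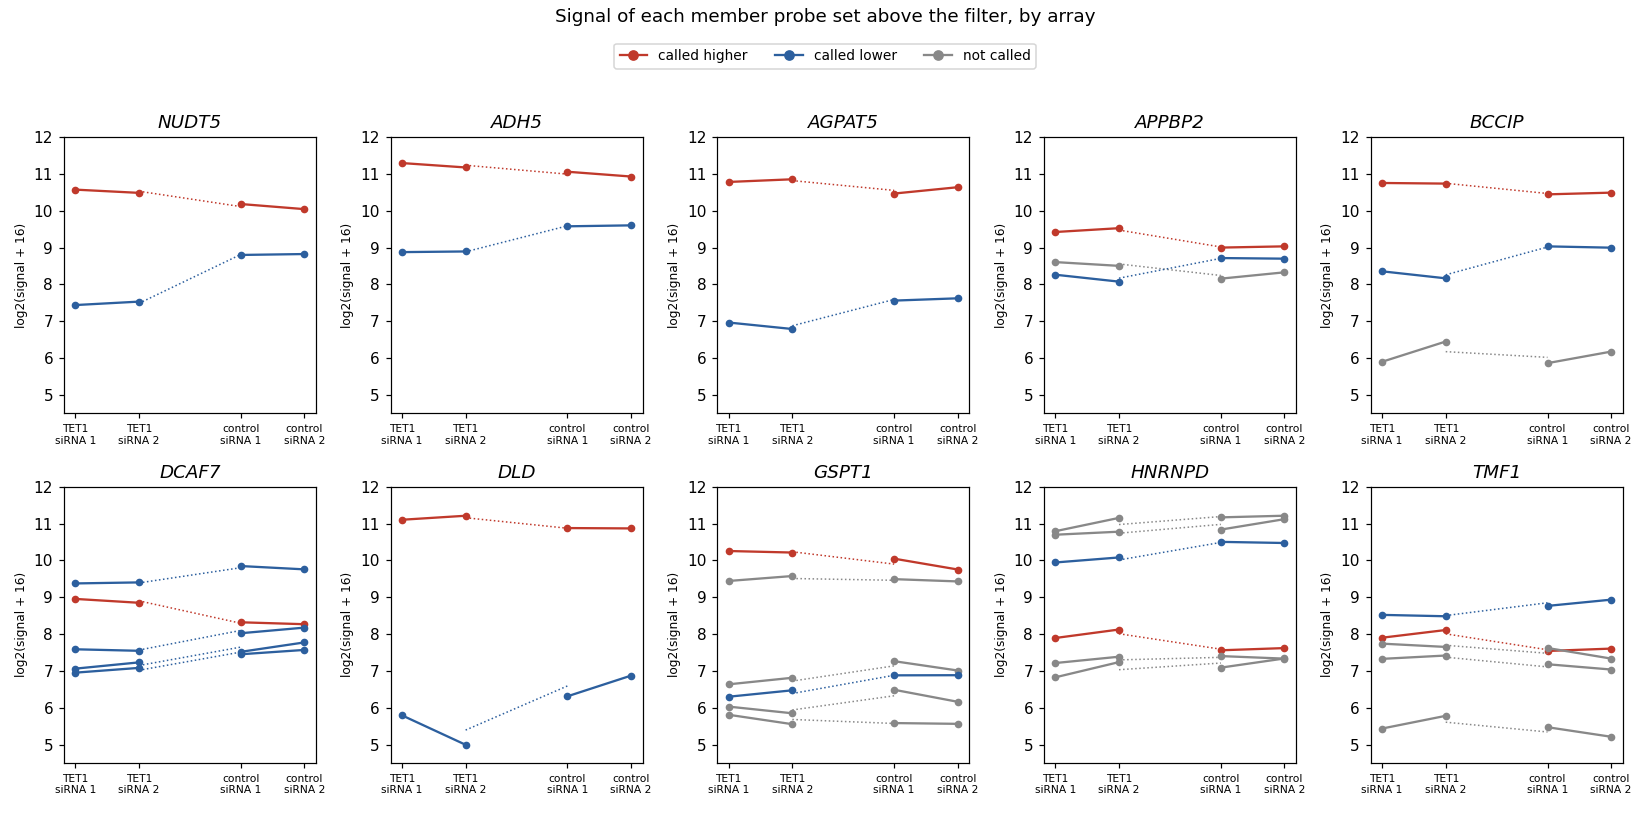
Signal of each of the 36 probe sets above the filter, on the log2(signal + 16) scale, on the 2 TET1 siRNA arrays (left) and the 2 control siRNA arrays (right) of each panel, 1 panel per gene. Red marks probe sets called higher (10), blue those called lower (13) and grey those not called (13), and dotted lines join the group means.

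Across the members the falls were larger than the rises. The probe sets called lower ran from -1.33 to -0.35 with a median of -0.53, and those called higher ran from 0.24 to 0.61 with a median of 0.38. Those called lower were also dimmer, with a median level at percentile 87.7 of all non-control probe sets, against 97.0 for those called higher. The part of level in the size of the differences was not tested. In 8 of 10 members the largest fall exceeded the largest rise in size, the exceptions being DCAF7 and TMF1. A change of 1.5-fold was reached by 5 of the 13 falls (NUDT5, DLD, BCCIP, AGPAT5 and ADH5) and by 1 of the 10 rises (DCAF7), so no member passed 1.5-fold in both directions, while 5 of the other 20 genes did. The arrays of the groups did not overlap in 30 of the 36 probe sets (in 56.1% of all probe sets tested), among them all 23 that were called, and nothing is read from that share because the same contrast chose the members.

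**Figure D2:**
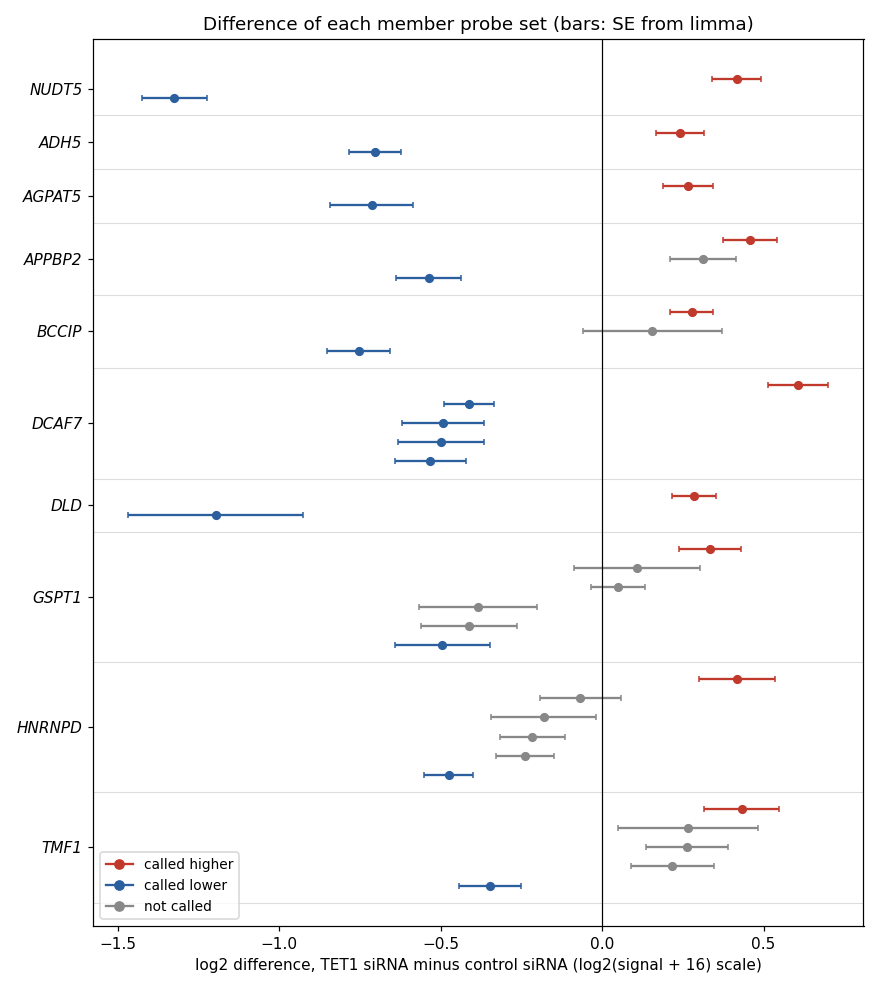
Log2 difference of each of the 36 probe sets, TET1 siRNA minus control siRNA, grouped by gene, with bars for the SE from limma. Each gene has 1 red point (called higher) right of 0 and at least 1 blue point (called lower) left of it, and NUDT5 and DLD have the points farthest to the left.

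The disagreement within a gene can be read on each array as the log2 ratio of the probe set with the highest difference to the one with the lowest, from which the scaling of the array drops out but for the pseudocount. For NUDT5 this ratio was 3.13 and 2.95 with TET1 siRNA and 1.38 and 1.22 with control siRNA. For DCAF7 it was 1.37 and 1.30 against 0.30 and 0.09, and for HNRNPD -2.05 and -1.96 against -2.94 and -2.85. In all 10 members both TET1 siRNA arrays lay above both control siRNA arrays. The choice of the members fixed that order, since the upper probe set was higher and the lower one lower, both without overlap of the groups. The shift between the groups equals the span between the differences of these probe sets, so neither value is further evidence on the members. The shift between the groups ran from 0.78 in TMF1 to 1.74 in NUDT5, and it was 1.63 (DLD) to 9.60 (NUDT5) times the wider gap between arrays of the same group. In DLD the ratio was 5.31 and 6.22 against 4.57 and 3.99, so its arrays spread most. These ratios show unequal change of the probe sets and not that either one kept its level.

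**Figure D3:**
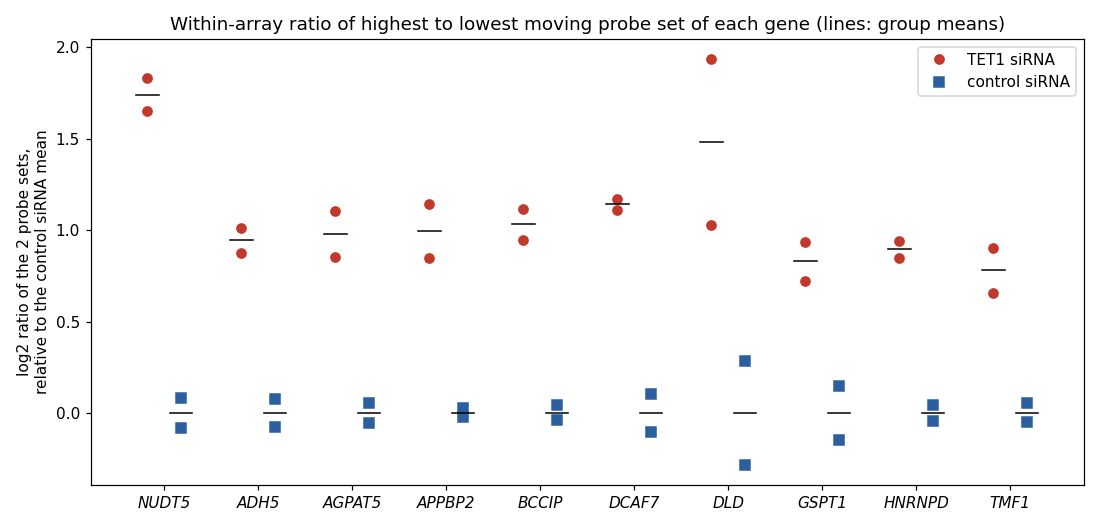
Within-array log2 ratio of the highest moving to the lowest moving probe set of each gene, set relative to the control siRNA mean of that gene, with TET1 siRNA arrays as red circles (left) and control siRNA arrays as blue squares (right) and lines at the group means. The group means differ by 0.78 to 1.74, and the 2 DLD arrays with TET1 siRNA lie farthest apart.

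The type of a probe set and its annotated target were not part of the rule that chose the members. Of the 13 probe sets that fell, 11 had plain _at names (4 of them of DCAF7), against 5 of the 10 that rose. Among all genes with 2 or more probe sets above the filter, the falls were 853 _at, 588 _s_at and 136 _x_at probe sets and 27 of a further type, _a_at. The rises were 692, 590, 119 and 35 in the same order. In the other genes with opposite calls the falls were 18, 3, 2 and 0 and the rises 16, 9, 2 and 2, again in that order. An expressed sequence tag (a short single-pass cDNA read) is the annotated target of 7 of the 13 that fell and of 3 of the 10 that rose. Over all genes with 2 or more probe sets above the filter a tag was the target of 614 falls and 473 rises. An mRNA was that of 714 falls and 723 rises. Other targets had 89 falls and 58 rises, and probe sets with none given had 187 and 182. In the other genes with opposite calls a tag was the target of 12 falls and 13 rises, and an mRNA that of 3 and 15. Other targets had 3 falls and 0 rises there, and probe sets with none given 5 and 1. In the 9 members with both kinds of target the median difference between tag-targeted and mRNA-targeted probe sets was -0.35, with the tag-targeted ones lower in 7 of 9. In the other genes with opposite calls it was -0.43, with the tag-targeted ones lower in 10 of 14. Over the 2755 genes with both kinds it was -0.04, with the tag-targeted ones lower in 55.6%. Genes with opposite calls have wide gaps between their probe sets by the way they were chosen. The sizes of -0.35 and -0.43 were therefore partly set in advance, and nothing is read from their distance to -0.04. These are counts over probe sets that share a gene and an array, so no test was made.

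The number of RefSeq transcripts was a median of 3.5 in the members (1 in ADH5, 7 in AGPAT5), against 4 in the other 20 genes with opposite calls and 6 in all 6222 genes. The members had a median of 3 probe sets above the filter, against 3 in the other 20 genes and 2 in all. The replicate spread (SD of log2 values within groups) had a median of 0.085 in probe sets called higher and 0.087 in those called lower, against 0.128 in all probe sets tested. A low spread favours a call, and a gene needs 2 probe sets above the filter to have opposite calls, so the spread and the number of probe sets were partly set by the choice of the members. Below the filter lay 7 further member probe sets (2 of DCAF7, 3 of HNRNPD, 1 of APPBP2 and 1 of TMF1), with signals from 0.7 to 22.7; they were not tested.

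What an analysis by gene reports for the members depended on the probe set chosen. With a gene represented by its brightest probe set, 7 members were higher, 2 lower (DCAF7 and TMF1) and 1 was not called (HNRNPD), against 11.2% higher and 10.6% lower among 12389 genes. By the mean over its probe sets, none was higher, 2 were lower (NUDT5, -0.45, and ADH5, -0.23) and 8 were not called, against 6.67% higher and 7.71% lower among all genes. With the dimmest probe set above the filter, none was higher and 5 were lower (5.18% and 5.86% of all genes). Without _x_at and _s_at probe sets 5 were higher, 4 lower and 1 not called (9.23% and 9.50% of all genes higher and lower). NUDT5 had a log2 difference of 0.42 by its brightest probe set, -1.33 by its dimmest and -0.45 by the mean. The same contrast chose the members, so these counts describe how far the choice of probe set matters for them.

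**Figure D4:**
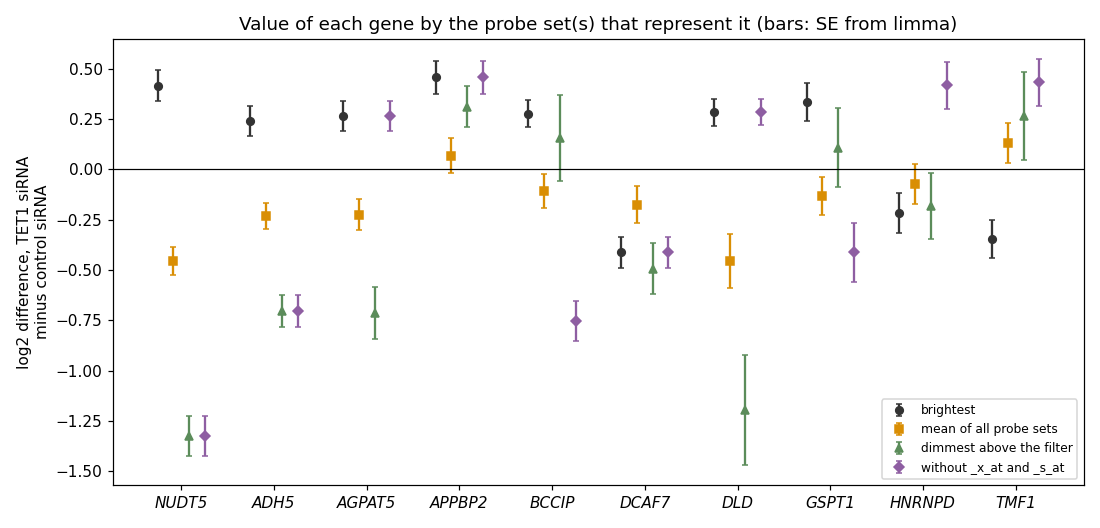
Log2 difference of each gene, TET1 siRNA minus control siRNA, by its brightest probe set, the mean of all its probe sets, its dimmest probe set above the filter and its brightest probe set when _x_at and _s_at types are left out, with bars for the SE from limma. APPBP2 lies above 0 and DCAF7 below 0 for all 4 choices, and the other 8 members lie on both sides of 0.

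The opposite calls depended on the variance model and on single arrays. In limma without the trend of the variance with level, and likewise without moderation of the variance across probe sets, 0 members and 0 genes had opposite calls (6993 and 5136 probe sets at unadjusted p below 0.05). At 1.5-fold or more in both directions 0 members and 5 genes did. Without 1 array the members with opposite calls were 5 (without TET1 siRNA replicate 1), 3 (without TET1 siRNA replicate 2), 5 (without control siRNA replicate 1) and 5 (without control siRNA replicate 2), and the genes with opposite calls were 13, 13, 18 and 12 in the same order. Over 8 alternatives that can move the value of a single probe set, none of the 23 called differences changed sign. For arrays left out and for other pseudocounts this was fixed in advance, because the groups did not overlap in any of the 23. The calls of APPBP2 held in 13 of 16 alternatives, those of NUDT5 and DCAF7 in 12, DLD in 8, AGPAT5, BCCIP and HNRNPD in 7, TMF1 in 5, ADH5 in 4 and GSPT1 in 2. NUDT5, ADH5 and DLD could be counted in only 15 of the 16, since 1 alternative left each with a single probe set, and leaving out _x_at and _s_at types takes a called probe set from 7 members.

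The 6 other genes with opposite calls and the largest span between probe sets, over the same 4 arrays, were SQSTM1 (1.84), FOXP2 (1.79), GPRC5A (1.59), NCS1 (1.48), PPM1A (1.44) and LAMP2 (1.40). NUDT5 (1.74) and DLD (1.48) lie within this range, and the other 8 members lie below it. SQSTM1, an autophagy receptor, had differences from -0.73 to 1.12 over 4 probe sets. The phosphatase gene PPM1A had 1 probe set called higher (0.50) and 3 lower (the lowest -0.94), a split like that of DCAF7. GPRC5A, an orphan receptor induced by retinoic acid, had its rise (1.01) and its called fall (-0.33) in _at probe sets. The span of all 6222 genes had a median of 0.28, against 0.99 in the members and 1.27 in the other 20 genes.

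The factors that cut, polyadenylate and splice transcripts were read by gene, each by its brightest probe set. Of 28 genes of cleavage and polyadenylation 27 were tested, of which 3 rose, 3 fell and 21 did not pass, with a median of -0.01 (0.01 over all 12389 genes). Both shares were 11.1%, near the 11.2% higher and 10.6% lower of all genes. SSU72, a phosphatase of the cleavage machinery, read 552.4 and 600.5 with TET1 siRNA and 343.6 and 372.3 with control siRNA (0.66, SE 0.091, limma adjusted p = 3.98e-04). RBBP6 (0.46) and CPSF2 (0.33) also rose, and the scaffold gene SYMPK (-0.54), CPSF4 (-0.33) and the poly(A) polymerase gene PAPOLA (-0.29) fell. Leaving out either TET1 siRNA array (replicate 1 or 2) left 1 rise and 0 falls, and leaving out control siRNA replicate 2 left 1 fall. NUDT21 and CPSF6, subunits of the CFIm complex that sets the choice of poly(A) site, had log2 differences of -0.01 (adjusted p = 0.933) and 0.00 (adjusted p = 0.980), both outside the naming rule. No gene of this list was among those with opposite calls.

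Of 57 splicing regulators 52 were tested, of which 5 rose (9.62%), 12 fell (23.1%) and 35 did not pass, with a median of -0.06, against 11.2% and 10.6% of all genes. The list is bright, with a median signal of 813.2 with TET1 siRNA and 832.05 with control siRNA, and those shares were not matched for level. Bright probe sets were called more often: 2248 higher and 2174 lower of 13653 with the upper-quartile filter, against 2119 and 2268 of 27306. The muscleblind genes MBNL2 (0.68) and MBNL1 (0.50), whose proteins also influence poly(A) site use, rose, as did SRPK2 (0.43), the epithelial regulator ESRP1 (0.38) and SRSF5 (0.27). MBNL2 read 838.5 and 978.4 with TET1 siRNA and 590.3 and 528 with control siRNA. The largest falls were those of RBM10 (-0.61), SRSF7 (-0.48), HNRNPA1 (-0.42), SRSF6 (-0.42), PTBP3 (-0.37) and HNRNPA2B1 (-0.36), which encode RNA-binding proteins that favour or block the use of exons. SRSF7 read 1504.5 and 1709.5 against 2202.2 and 2277.6. The rises were 3 without TET1 siRNA replicate 2, and the falls were 6 without TET1 siRNA replicate 1 and 7 without control siRNA replicate 2.

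Proteins that bind AU-rich or related elements in transcripts, a list that holds HNRNPD itself and shares TIA1, TIAL1 and CELF1 with the splicing list, numbered 19, of which 16 were tested. Of these 4 fell and none rose in limma (0 higher and 5 lower at unadjusted p below 0.05), with a median of -0.05, against 11.2% higher and 10.6% lower of all genes. IGF2BP2 read 571.2 and 527.2 with TET1 siRNA and 992.5 and 953.6 with control siRNA (-0.81, SE 0.080, limma adjusted p = 5.29e-05). The decay factor genes ZFP36L2 (-0.73) and ZFP36L1 (-0.65) and IGF2BP3 (-0.35), which like IGF2BP2 encodes a protein that binds and stabilises transcripts, also fell.

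Of 40 genes whose products work with the members' proteins or share their family, 35 were tested: 8 rose (22.9%), 3 fell (8.57%) and 24 did not pass, with a median of 0.07, against 11.2% and 10.6% of all genes. CDKN1A, the partner of BCCIP, read 1623.9 and 1703.3 with TET1 siRNA and 968.9 and 946.4 with control siRNA (0.79, SE 0.070, limma adjusted p = 2.66e-05). Of 10 genes for other subunits of the pyruvate, 2-oxoglutarate and branched-chain ketoacid dehydrogenase complexes 2 rose, 1 fell and 7 did not pass. The pyruvate dehydrogenase genes PDHX (0.41) and DLAT (0.37) rose, while PDHA1 (-0.22) and PDHB (0.15) were not called. BCKDHA of the branched-chain complex fell (-0.47), and BCKDHB (0.07), DBT (0.26), OGDH (-0.38), OGDHL (-0.36) and DLST (-0.24) were not called. Of 7 ubiquitin ligase parts around APPBP2 and DCAF7, RBX1 (0.40), CUL4B (0.39), ELOB (0.39) and ELOC (0.21) rose, and 3 did not pass: CUL2 (0.06), DDB1 (-0.10) and CUL4A (-0.14). NUDT1, a relative of NUDT5 that removes oxidised nucleotides, fell (-0.88), and AGPAT2, a relative of AGPAT5, fell as well (-0.34). The rises were 4 without TET1 siRNA replicate 2, and the falls were 1 without TET1 siRNA replicate 1, 1 without control siRNA replicate 1 and 1 without control siRNA replicate 2. The lists were not tested as sets, and the shares over all genes were not matched to any list for signal level.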

How the data were processed

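Each deposited value is a linear intensity of 1 probe set on 1 array, and the authors had scaled the arrays: the trimmed mean (2% of probe sets left out at either end) was 100.01 on each. Software and background correction were not given in the sources used here, so dim values depend on an unstated step. Samples were grouped by the siRNA in their titles. Tests used log2(signal + 16). The array holds 54675 probe sets, of which 62 controls were dropped; 41091 had 1 gene symbol, 1801 several and 11721 none, and symbols were updated through gene identifiers to RefSeq (GRCh38.p14, 41037 matched). Probe sets (27306), and separately genes by their brightest probe set (12389), were tested with limma 3.58.1 in R 4.3.3 (eBayes with trend, two-sided, Benjamini-Hochberg over all tested). The probe set fit had 2 residual and 8.73 prior degrees of freedom; an exact permutation test of 2 against 2 cannot give a p below 0.33. Targets were classed as expressed sequence tag or mRNA by the prefix of the annotated accession. The number of arrays limits precision. Figures used matplotlib 3.10.9.

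The members and gene lists were chosen with earlier results of these data known. The rule for named genes takes the members, TET1, up to 6 called genes of each list and direction by size, and the 6 other genes with opposite calls and the largest span; names outside it are marked or follow from a threshold, an overlap, a marker list or a subgroup given whole. Alternatives were pseudocounts of 1 and 64, median centring, quantile normalization, no variance trend, no moderation, a block for the replicate number, each array left out in turn, other filters, other probe sets per gene and other thresholds. No probe sequences were used here, so the positions of probe sets in their transcripts were not analysed. The 3′ to 5′ ratio of 1 further control transcript is not reported here.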

Additional observations from a re-analysis of the deposited data

How the results depend on the processing

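Counts are given as probe sets higher and lower, genes with opposite calls and members with opposite calls. They were 298, 541, 0 and 0 without a variance trend (6993 probe sets at unadjusted p below 0.05) and 0, 1, 0 and 0 in limma without moderation (5136 at unadjusted p below 0.05), where 2 residual degrees of freedom remain. They were 1098, 1204, 7 and 3 when dim probe sets stayed in, 1104, 1248, 13 and 3 without _x_at and _s_at probe sets (which leaves fewer probe sets), 1004, 1177, 7 and 3 at adjusted p below 0.01, and 795, 1161, 5 and 0 at 1.5-fold or more. With quantile normalization, median centring, pseudocounts of 1 and 64 and the upper-quartile filter the opposite calls numbered 21, 24, 24, 33 and 33 genes and 7, 7, 9, 10 and 8 members. Leaving out 1 array gave 1257 to 1646 probe sets higher, 1421 to 1630 lower, 12 to 18 genes and 3 to 5 members, with the single remaining array of a group taken to vary as much as the other group. Which step made the members lose their calls was not tested.

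Counts of list genes higher and lower were, for cleavage and polyadenylation, 1 and 0 without trend, 0 and 0 without moderation, 1 and 1 with no filter, 1 and 1 at adjusted p below 0.01, 1 and 0 at 1.5-fold, 0 higher by the mean over probe sets, and 1 to 2 and 0 to 2 without 1 array. For splicing regulators they were 2 and 0, 0 and 0, 3 and 7 in the first 3 settings, 6 lower at adjusted p below 0.01, 1 and 1 at 1.5-fold, 2 and 6 by the mean over probe sets, 2 and 7 without _x_at and _s_at probe sets, and 3 to 6 and 6 to 11 without 1 array. For the members' partners they were 1 and 0, 0 and 0, 5 and 1 in the first 3 settings, 1 lower at adjusted p below 0.01, 1 and 1 at 1.5-fold, 4 higher without _x_at and _s_at probe sets, and 4 to 7 and 1 to 2 without 1 array. For AU-rich element binding they were 0 lower without moderation, 1 higher without _x_at and _s_at probe sets, and 0 to 0 and 4 to 5 without 1 array. The TET1 difference was -1.30 to -1.27 without 1 array, and without moderation it did not pass (-1.28, adjusted p = 0.0999).

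Signs of gene-level values turned against the brightest probe set by the mean over probe sets in NUDT5 (-0.45), ADH5 (-0.23), AGPAT5 (-0.22), BCCIP (-0.11), DLD (-0.46), GSPT1 (-0.13) and TMF1 (0.13). They turned with the dimmest probe set in NUDT5 (-1.33), ADH5 (-0.70), AGPAT5 (-0.71), DLD (-1.20) and TMF1 (0.27). Without _x_at and _s_at probe sets they turned in NUDT5 (-1.33), ADH5 (-0.70), BCCIP (-0.75), GSPT1 (-0.41), HNRNPD (0.42) and TMF1 (0.43). These turns follow from the probe set chosen. Of 288 values of member probe sets under 8 alternatives (the block cannot move them) 14 moved by more than the spread between replicates, and no called difference changed sign. A sign could turn only under quantile normalization or median centring, because the groups did not overlap in any called member probe set. With the replicate number as a block 2151 probe sets were higher and 2327 lower, with 27 genes and 9 members with opposite calls, and it moved no count by over 1.5 times. Deviations of same-numbered arrays had a correlation of 0.0066, so no shared shift by number was seen. That value cannot show whether same-numbered samples were handled together.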

Other observations

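In RefSeq, 2 of the members overlap another protein-coding gene, NUDT5 with SEC61A2 and BCCIP with DHX32; these neighbours were named for the overlap. NUDT5 lies on the minus strand and SEC61A2, a translocon subunit gene, on the plus strand. The SEC61A2 probe set 219499_at read 49 and 33.8 with TET1 siRNA and 18.2 and 24.7 with control siRNA and was not called (0.61, SE 0.22), and the other 2 were not called either (0.33 and -0.02). DHX32, a helicase gene, read 969.1 and 883.4 with TET1 siRNA and 865.1 and 813.4 with control siRNA and was not called (0.14, SE 0.081). Pseudogenes named after a member are listed for NUDT5 (1), ADH5 (4), AGPAT5 (1), HNRNPD (2) and TMF1 (1); their part in the signals was not tested.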
